A study of Caenorhabditis elegans with 2 samples.

Results

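LIN-26 is a zinc-finger protein of Caenorhabditis elegans. The regions described here are its ChIP-seq peaks in the space between protein-coding genes, outside their promoter windows. They numbered 459 of the 3187 peaks on the nuclear chromosomes in the authors' thresholded list. It was derived from both replicates and is less strict than the authors' conservative list. A peak was a member when its summit, the position of highest enrichment, met 4 conditions. It lay more than 500 bp from any tRNA, snoRNA or snRNA gene. It lay outside a promoter window from 1000 bp upstream to 200 bp downstream of every protein-coding 5′ end. It lay more than 200 bp past any protein-coding 3′ end, and outside every protein-coding gene body. Within that list the rule used positions only. Non-coding genes and pseudogenes were not barred, and 382 members lay outside the bodies of all annotated genes, piRNA genes set aside.

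All the data came from 1 group, strain RW12178, with 2 biological replicates. All animals carried the allele st12178, a CRISPR-made lin-26::GFP fusion with an unc-119(+) marker and loxP sites, and the mutation unc-119(tm4063) III. The animals were whole young adults, collected at 64 hours from starved L1 larvae synchronised by bleaching. Chromatin sonicated to 200 to 800 bp was precipitated with an anti-GFP antibody per the labels' description, while their antibody field reads lin-26. Whole animals mix all tissues, so the cells behind a peak are not resolved, and there was no second genotype or stage for comparison.

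LIN-26 is known as a regulator that cells of the epidermis need to acquire and keep their fate, and it also acts in support cells and in the somatic gonad. In this compact genome most regulatory sequence lies close to gene starts, and some enhancers lie farther out between genes. ChIP-seq recovers DNA bound by a protein directly and DNA held through other proteins. Transcription by RNA polymerase III uses short elements inside tRNA genes and related sequences, called the A box and the B box, which recruit the factor TFIIIC. Many repeats in animal genomes descend from tRNA genes and keep these elements.

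Many of the strongest members, 33 of the first 50, belonged to groups of similar DNA sequence, and a few sequences show what the peaks held. All were read from the WBcel235 genome, the assembly that ce11 names, as RefSeq gives it. The second strongest member had a copy of its sequence under the strongest nuclear peak in the list, which lies in an intron of Y46G5A.34. The copy was 91.3% identical over 150 bases. In both sequences the capitals mark the longest run they share without a difference, 35 bases.
member at chrIV:13430321-13430470, plus strand: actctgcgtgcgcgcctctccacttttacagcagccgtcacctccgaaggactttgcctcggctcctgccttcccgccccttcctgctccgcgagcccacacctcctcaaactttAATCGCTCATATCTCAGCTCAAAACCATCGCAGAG
intron copy at chrII:12778541-12778690, plus strand: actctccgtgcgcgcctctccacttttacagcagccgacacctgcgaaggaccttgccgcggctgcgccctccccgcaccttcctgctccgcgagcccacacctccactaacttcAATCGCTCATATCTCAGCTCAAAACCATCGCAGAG
Neither the Ensembl nor the RefSeq annotation placed a gene on the member's interval.

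The largest group had 19 members on all 6 chromosomes, and its sequences are shown because they carry tRNA-like elements. The A box consensus was matched in 19 of 19 windows of 150 bp around the summits. Downstream of it, after 32 to 34 bases, each had a stretch close to the B box. Of the 9 fixed letters of the B box, 3 members matched 8, 12 members matched 7, and 4 members matched 6. The first 4 lines are the strongest members, and the last line is the weakest. The first block of capitals marks the A box and the second the closest approach to the B box.
member at chrIV:2740211-2740289, plus strand: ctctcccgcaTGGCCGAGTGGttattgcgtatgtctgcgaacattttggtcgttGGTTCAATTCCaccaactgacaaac
member at chrII:4928490-4928567, minus strand: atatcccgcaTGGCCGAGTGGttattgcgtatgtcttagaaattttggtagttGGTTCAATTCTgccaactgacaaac
member at chrX:13973291-13973369, plus strand: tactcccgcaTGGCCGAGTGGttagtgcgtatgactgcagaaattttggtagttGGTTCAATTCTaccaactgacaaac
member at chrIV:16731459-16731537, plus strand: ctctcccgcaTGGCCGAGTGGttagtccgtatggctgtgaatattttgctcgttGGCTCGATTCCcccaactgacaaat
member at chrV:16474884-16474962, plus strand: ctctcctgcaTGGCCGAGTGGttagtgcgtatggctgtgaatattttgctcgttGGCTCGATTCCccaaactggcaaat
The A box letters were identical in these 5 lines. The B box stretch varied at 3 of its letters, one of them the last.

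A group of 6 members held 4 of the 8 strongest members. The capitals in its strongest pair mark the longest run shared by all 6 members, 22 bases.
member at chrV:15767495-15767644, plus strand: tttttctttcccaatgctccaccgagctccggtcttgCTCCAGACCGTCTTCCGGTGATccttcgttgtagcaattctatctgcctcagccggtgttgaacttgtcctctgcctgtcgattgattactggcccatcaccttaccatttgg
member at chrV:14237595-14237744, minus strand: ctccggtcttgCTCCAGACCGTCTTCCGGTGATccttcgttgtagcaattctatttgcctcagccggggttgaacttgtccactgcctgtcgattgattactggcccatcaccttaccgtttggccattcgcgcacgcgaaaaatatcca
Another group of 6 shared a run of 12 bases, in capitals in its strongest pair. It lies beside a palindromic E box, CACGTG, in the stronger of them.
member at chrIV:9196370-9196519, plus strand: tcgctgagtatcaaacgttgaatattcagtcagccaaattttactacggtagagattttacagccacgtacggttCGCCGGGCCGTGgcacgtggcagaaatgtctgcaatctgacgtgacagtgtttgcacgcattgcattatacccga
member at chrIV:4725491-4725640, minus strand: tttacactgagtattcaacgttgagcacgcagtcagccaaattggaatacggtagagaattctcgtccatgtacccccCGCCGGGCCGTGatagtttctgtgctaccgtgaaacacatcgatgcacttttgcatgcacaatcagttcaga

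Some members carried an exact B box, given in capitals for 3 strong ones.
member at chrIV:11026109-11026209, minus strand: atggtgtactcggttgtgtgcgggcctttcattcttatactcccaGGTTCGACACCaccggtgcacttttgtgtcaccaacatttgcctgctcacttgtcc
member at chrIII:2030876-2030976, minus strand: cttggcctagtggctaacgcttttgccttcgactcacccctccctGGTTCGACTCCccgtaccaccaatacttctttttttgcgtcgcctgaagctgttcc
member at chrIII:1744592-1744692, minus strand: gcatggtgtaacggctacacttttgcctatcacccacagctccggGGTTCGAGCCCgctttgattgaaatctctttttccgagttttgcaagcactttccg
Others carried the consensus of EOR-1, a zinc-finger protein of the worm known from Ras signalling. It is in capitals for 4 of the strongest such members.
member at chrV:16356048-16356117, minus strand: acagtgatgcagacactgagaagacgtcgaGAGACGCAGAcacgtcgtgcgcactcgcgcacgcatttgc
member at chrV:20778313-20778382, minus strand: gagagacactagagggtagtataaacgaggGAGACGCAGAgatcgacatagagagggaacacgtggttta
member at chrIII:10720250-10720319, minus strand: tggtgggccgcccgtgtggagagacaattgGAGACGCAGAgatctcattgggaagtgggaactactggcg
member at chrII:9274185-9274254, plus strand: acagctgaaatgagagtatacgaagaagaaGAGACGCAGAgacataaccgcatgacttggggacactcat

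Signal is the peak caller's value for enrichment over a control, as the authors deposited it, and it is not scaled between lists. Over the 459 members it ran from 2.14 to 2778, with a median of 111 and quartiles of 92.6 and 145. The median was 103 at the 386 intron peaks and 108 at the 1085 promoter peaks. It was 214 at the 643 peaks near tRNA, snoRNA or snRNA genes. Most members were therefore of ordinary strength, and a few were far above the rest. The 50 strongest spanned 215 to 2778.

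Each replicate also had its own thresholded list, which the membership rule did not use. Replicate 1 held 134 members in its list and replicate 2 held 252. The shorter of the overlapping peaks had to be covered by at least 50%. Both lists held 106 members, 23.1% (95% Wilson interval 19.5 to 27.2%), and neither held 179, or 39.0%. Over all nuclear peaks the share in both lists was 29.2%, and the share in neither was 37.5%. The stricter conservative list held 327 members, 71.2%, near the 71.5% of all nuclear peaks. All of the 50 strongest members were in both own lists, against 56 of the other 409. Signal and the own lists come from the same libraries, so this contrast is a description.

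Members were found in both own lists more often than intron peaks, by a modest margin. Of the intron peaks 64 of 386, or 16.6%, were in both, a ratio of 1.39 (two-sided Fisher exact test, adjusted p = 0.0401). Of the promoter peaks 228 of 1085, or 21.0%, were in both, a ratio of 1.10 that did not pass the threshold (Fisher exact test, adjusted p = 0.380). Among peaks at or above the median signal the ratio to intron peaks was 1.01 (Fisher exact test, adjusted p = 1.00), and without related copies it was 1.58 (exact test, adjusted p = 0.0563). Neighbouring summits and repeated sequences are not independent, so these p-values are too small.

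**Figure D1:**
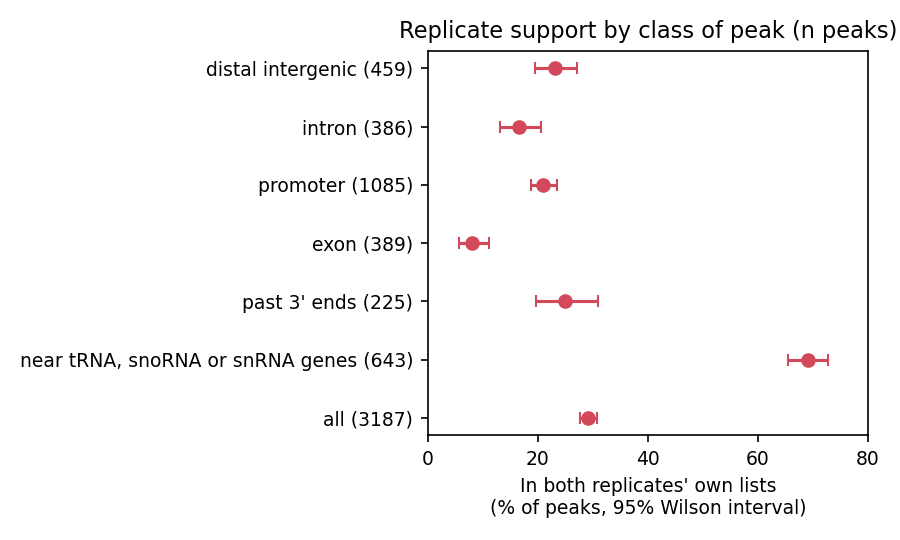
Share of peaks found in both replicates' own lists, by class of peak, with the number of peaks in parentheses and 95% Wilson intervals as bars. Distal intergenic peaks, at 23.1%, lie between intron peaks at 16.6% and peaks past 3′ ends at 24.9%, and far below peaks near short RNA genes at 69.2%.

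Before any threshold, the replicates' ranked lists held 55942 and 75491 peaks. There was one at 430 members in replicate 1 and at 438 in replicate 2, and 416, or 90.6%, had both. Of the 2728 other nuclear peaks 2547, or 93.4%, had both. Over these 416 the median signal was 47.9 in replicate 1 and 71.1 in replicate 2. Replicate 2 was higher at 353 members, with a median ratio of 1.50. The median ratio at the other nuclear peaks was 1.48. Across members the 2 signals rose together with a Spearman rho of 0.529, a description over peaks of the same libraries.

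**Figure D2:**
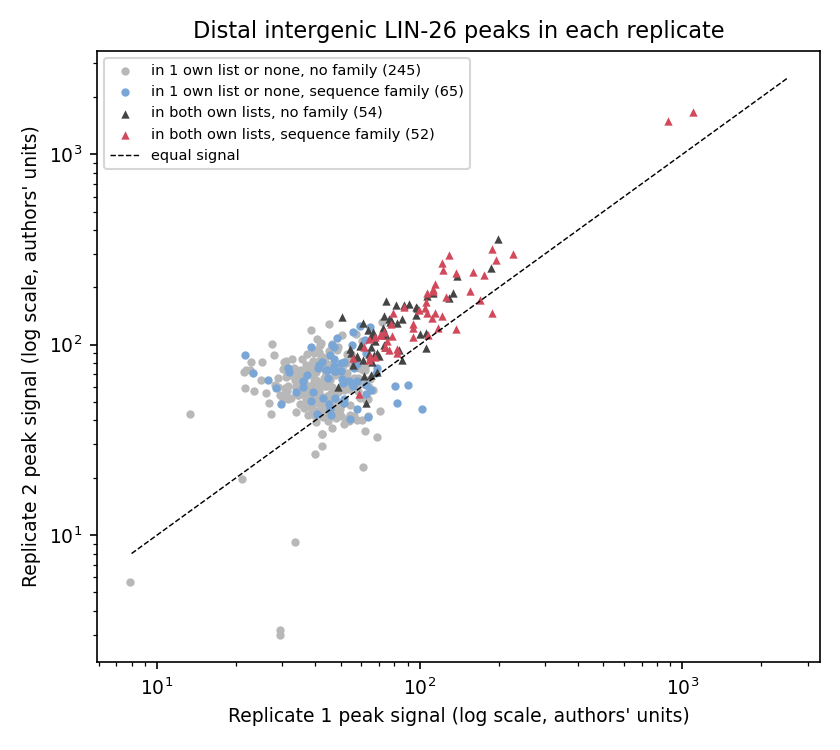
Signal of 416 members in replicate 1 (x axis) and replicate 2 (y axis), both on log scales in the authors' units, with triangles for members in both own lists and red or blue for members of a sequence group. Most points lie above the dashed line of equal signal, and 2 members stand alone at the upper right.

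The 2 strongest members exceeded every other by a wide gap. The first, at chrI:5639193-5639606, had signals of 1096 in replicate 1 and 1673 in replicate 2, and 2778 in the list of both. It lay 3903 bp upstream of M01A12.4 and 11588 bp from the 5′ end of F46F11.1 on the other side. The second, at chrIV:13430206-13430563, had 885, 1503 and 2397, and lay 856 bp downstream of the 5′ end of K09B11.4. The third strongest member was at 595, so both stood apart in both replicates.

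These 2 members aligned to each other over 137 bases at 81.8% identity, and 9 places in the genome aligned to the first of them over at least 90 bases. Thresholded peaks covered 8 of the 9. Besides the 2 members they comprised 5 intron peaks and 1 promoter peak. The copy in Y46G5A.34 had a signal of 1097 in replicate 1, 2041 in replicate 2 and 3137 in the list of both. The promoter copy on chromosome I was at 935. The intron copies on III were at 845 and 233, that on V at 587 and the other on II at 1029.6. The remaining copy, at chrV:10136836-10136985, was 98.7% identical to the strongest member and had no peak in the thresholded or the ranked list. The placement of reads that match several copies was not stated, and its part in these values was not tested.

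The third strongest member lay at a microRNA gene. It spanned chrIV:11025902-11026333, inside the non-coding RNA gene F36H1.17, with its summit 71 bp from mir-51. It had 199 in replicate 1, 357 in replicate 2 and 595 in the list of both. Its exact B box is printed in the lines above, and no related copy was found elsewhere in the genome. mir-51 belongs to the worm's mir-51 family, the relatives of miR-100. The nearest protein-coding 5′ ends were those of hrg-5, a haem-responsive gene, at 3002 bp, and alh-3, an aldehyde dehydrogenase family gene, at 3580 bp.

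The group of 6 led by chromosome V held 4 of the 8 strongest members. The first of them, at chrV:15767422-15767723, was at 227, 300.1 and 531 in replicate 1, replicate 2 and the list of both. It lay between F57A10.2 and F57A10.4. The next, inside the non-coding RNA gene K02E11.15 and 1628 bp upstream of ent-3, a nucleoside transporter gene, was at 188, 318 and 509. Another lay 3329 bp upstream of dmd-10, a DM-domain transcription factor gene, and was at 195, 279 and 475. One more lay 1148 bp upstream of ftn-1, a ferritin gene, and was at 175, 233 and 419. The 2 members on chromosome IV were lower in the list of both, at 187 upstream of clp-7 and 128 upstream of F49F1.7. In the genome 21 places aligned to the strongest of them, and 15 of these, 71.4%, had a thresholded peak, 8 of them in introns. The 6 places without one were still 85.7 to 98.0% identical to it. Only the last member, at 128, was missing from an own list, that of replicate 1.

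The other group of 6 was the only one of at least 4 members in which every member was in both own lists. Its signals ran from 168 to 422, with a median of 256. The strongest, at chrIV:9196338-9196515, had 129 in replicate 1 and 295 in replicate 2. It lay 853 bp downstream of the 5′ end of C46C2.7 and 3658 bp upstream of wnk-1, a WNK kinase gene. A second lay 420 bp past the 5′ end of K08F11.1, with 123 and 247. Just 3 places in the genome aligned to the strongest over at least 90 bases. Besides its own place, these were 75.2% and 77.2% identical to it.

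The group of 19 with tRNA-like elements was spread widely and varied in strength. Its signals ran from 83.5 to 399, with a median of 189, and 13 of the 19 were in both own lists. The strongest, at 159 in replicate 1, 241 in replicate 2 and 399 in the list of both, overlapped the tRNA pseudogene Y94H6A.t1. It lay 2767 bp upstream of nhr-277, a nuclear hormone receptor gene. The next, 3289 bp upstream of aagr-2, an acid alpha-glucosidase-related gene, was at 138, 237 and 370.3. The weakest, near the chemoreceptor gene srw-35, was at 35.8 in replicate 1 and had no matched peak in replicate 2. Among 68 genomic places that aligned to the strongest member, 33, or 48.5%, had a thresholded peak and 46 had a peak in the ranked list. Of the 33, 19 were members, which the rule places more than 500 bp from annotated tRNA, snoRNA and snRNA genes. The others were 8 intron peaks, 5 promoter peaks and 1 in an exon or past a 3′ end. None of these others was within 500 bp of such a gene. Over all members, 5 lay within 500 bp of one of the 209 annotated tRNA pseudogenes. The share of the space near these pseudogenes was not computed.

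Another 3 groups came from abundant repeats and had thresholded peaks at few of their copies. Their strongest members aligned to 350, 219 and 168 places, of which 2.29%, 8.68% and 2.98% had a thresholded peak. In the ranked list, with no threshold, 98, 136 and 81 of these places had a peak. Each had 8 members, with medians of 186, 102 and 103. In all, 127 members (27.7%) fell in 33 groups, 12 of them with at least 4 members. Their median signal was 138 and 52 of them, 40.9% (32.8 to 49.6%), were in both own lists. The 332 members in no group had a median of 105, and 54 of them, 16.3% (12.7 to 20.6%), were in both. The groups also took 33 of the 50 strongest members. The groups were formed after the signals were seen, so no test was made.

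**Figure D3:**
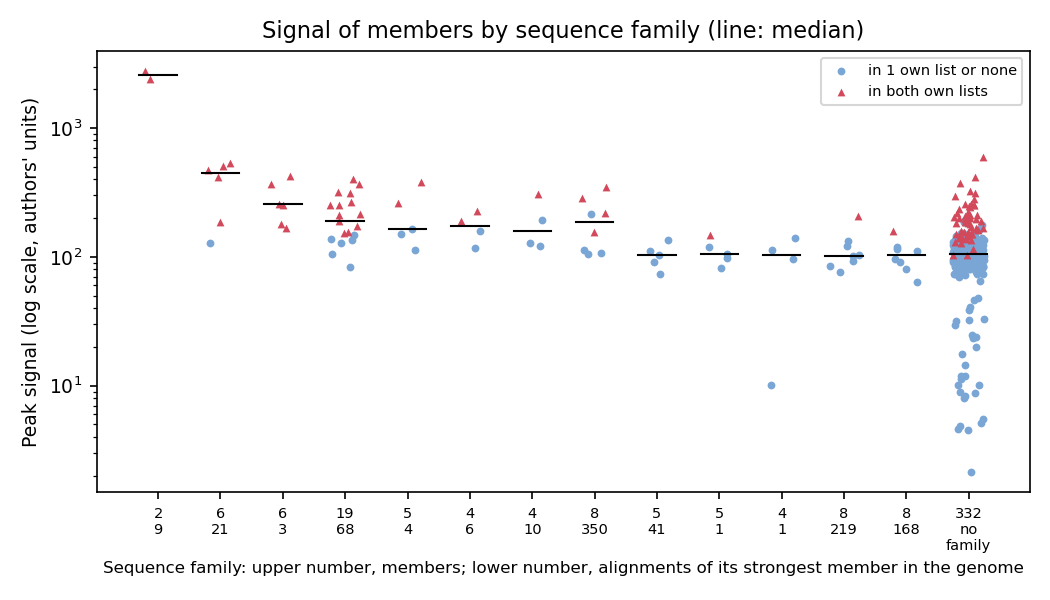
Signal of each member (log scale, authors' units) by sequence group, for the pair of strongest members, the 12 groups of at least 4 members and the 332 members in no group, with the median as a line and triangles for members in both own lists. The numbers under each group are its members and the genomic places its strongest member aligned to. The pair lies above 2000, and the groups with 350, 219 and 168 places have medians of 186, 102 and 103.

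Related copies were about as frequent among members as in the space they were drawn from, with overlapping intervals. A related copy, at least 80% identical over 120 bases, existed for 128 members, 27.9% (24.0 to 32.2%). The share was 24.9% (23.2 to 26.7%) in 2316 windows placed evenly over the same space, 26.2% at intron summits and 10.9% at promoter summits. Among the 50 strongest members it was 60.0%, and 24.0% among the other 409. Soft-masked repeat sequence filled on average 25.1% of member windows and 40.4% of the space. The mean GC content of member windows was 46.5% ± 8.38 (SD, 459 windows), against 34.3% in the space.

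Other strong members had no group. One, at chrV:5667404-5667622 and 1434 bp upstream of C14C11.7, was at 186 in replicate 1, 254 in replicate 2 and 417 in the list of both. Another lay 1214 bp upstream of zfr-1, a zinc-finger RNA-binding protein gene, and was at 139, 229 and 374, with an exact B box. One inside the long non-coding RNA gene linc-128, 4781 bp upstream of the calmodulin gene cmd-1, was at 112, 187 and 312. One 2776 bp upstream of rho-1, a small GTPase gene, was at 129.8, 175 and 296. Replicate 2 was higher in all 4. A member in a pair of related sequences, 9365 bp upstream of ckr-2, a cholecystokinin receptor-like gene, was at 169, 172 and 316.

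Across the genome, members were fewer than their space would give under even placement. The space left by the rule was 23.2 Mb, 23.1% of the nuclear bases, and it held 14.4% (13.2 to 15.7%) of the summits. The ratio was 0.623 (0.572 to 0.678, two-sided exact binomial test, p = 1.3e-34). In replicate 1 alone it was 0.549 and in replicate 2 alone 0.598. Without the summits and bases near short RNA genes it was 0.772. Among the 100 strongest nuclear peaks 11 were members, 11.0%, and among those ranked 601 to 1200 there were 97, or 16.2%.

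Members were unevenly spread over the chromosomes. Chromosome III held 83, a share 1.61 times its share of the space (1.32 to 1.95), and the ratio was 1.24 in replicate 1 and 1.49 in replicate 2. Chromosome V held 60, a ratio of 0.643 (0.506 to 0.810), with 0.749 and 0.649 in the replicates. Chromosome IV was at 0.807 in the list of both and 0.840 in replicate 2, but 1.14 in replicate 1. The X chromosome held the most, 120, a ratio of 1.14 (0.976 to 1.33). Other peaks away from short RNA genes had a ratio of 0.715 on X and 1.36 on III, each against their own space. The intervals cover counting error only.

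**Figure D4:**
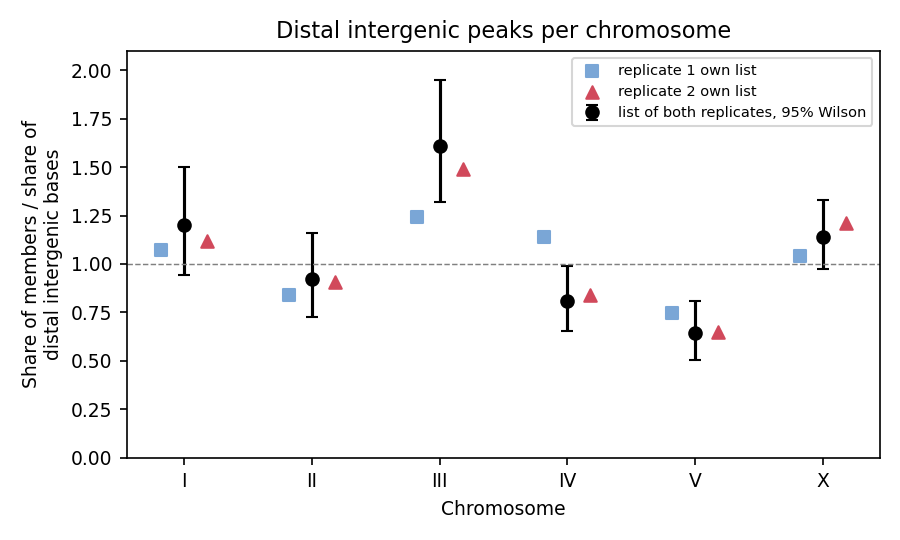
Share of members on each chromosome divided by that chromosome's share of distal intergenic bases, for the list of both replicates (black, 95% Wilson interval) and each replicate's own list. Chromosome III is highest at 1.61 and V lowest at 0.643, in the list of both.

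Within the space, members lay at distances from genes close to those of the space itself. The median distance to the nearest protein-coding 5′ end was 2611 bp (quartiles 1562 and 3976 bp), against 2798 bp over all its bases. Within 2000 bp lay 168 members, 36.6%, against 32.0% of the bases. Beyond 5000 bp lay 67, or 14.6%, against 21.6%, and the farthest was 15219 bp away. Of the members 302, or 65.8% (61.3 to 70.0%), lay upstream of that gene start, against 67.9% of the bases. The members fell in 377 separate gaps between gene bodies. The gap around a member had a median length of 6514 bp, shorter than the 7929 bp over all bases of the space.

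Some members lay close to a stronger summit. A stronger summit lay within 300 bp of 33 members, whose median signal was 14.5. They included all 32 members with a signal under 50. The other 426 members had signals of at least 53.2. Several summits also gathered near single genes. The nearest 5′ end was that of dmd-6, C30E1.4 or W09D10.4 for 4 members each, and 9 genes were nearest to at least 3. For 337 genes there was exactly 1.

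Kinds of non-coding gene differed in how often they lay at members. The summit was inside a gene annotated as ncRNA for 44 members, 9.59%, and such genes cover 1.74% of the space, a ratio of 5.52 (4.16 to 7.27). For pseudogenes the ratio was 0.477 (0.325 to 0.693, 25 members). The genes of piRNAs, small RNAs of the germ line, lay within 500 bp of 10 members, a ratio of 0.255 (0.139 to 0.463). A microRNA gene lay within 500 bp of 8 members, a ratio of 4.06 (2.06 to 7.92). After the mir-51 member the strongest of these was at mir-80, with 65.3 in replicate 1, 111 in replicate 2 and 163 in the list of both. A member 92 bp from mir-42, in the cluster with mir-43 and mir-44, was at 57.7, 87.1 and 137. One near mir-241, a let-7 family microRNA of developmental timing, was at 41.7, 62.7 and 115. The lincRNA ratio, for 10 members within 500 bp, was 1.79 with an interval from 0.975 to 3.25. No ncRNA, pseudogene, lincRNA, microRNA, rRNA or antisense RNA gene lay within 500 bp of 325 members, 70.8%, a count that sets piRNA genes aside.

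A pair of related members lay at the non-coding RNA genes srpr-2.1 and srpr-3. The first, on chromosome III, was at 78.8 in replicate 1, 147 in replicate 2 and 248 in the list of both. The second, on chromosome V, was at 39.4, 56.6 and 105, in neither own list. Of 5 places that aligned to the first, 4 had a thresholded peak.

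Motifs were compared between members and the other classes of peak, and with the DNA around the summits. In 150 bp windows at the summits 14 consensus motifs were searched on both strands. By name they included the A box, the B box, the EOR-1-like motif and the telomere repeat. GAGAGAGA stood for a GA repeat and TTTTTTTT for a T tract. GGGCGG is the site of KLF and Sp factors, and AGGTCA is a nuclear receptor site. CACGTG is one E box, while CAGCTG is another. The AP-1 site was written TGANTCA, and the BLMP-1 site AGNGAAAG. The GATA motif was GATA with A or T before it and a purine after it. The PHA-4 motif was TNTTNNN, whose open letters were in turn a purine, G or T, a purine and a pyrimidine. The A box can overlap other motifs, and EOR-1-like matches lay with GAGAGAGA in 14 windows.

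The B box and the A box were more frequent at members than at promoter summits. The motifs were chosen with earlier results of these data known, so the tests are not independent of those results. The B box was in 19 member windows, 4.14% (2.67 to 6.37%), and in 1.01% of promoter windows, a ratio of 4.08 (two-sided Fisher exact test, adjusted p = 0.00404). The A box was in 94, 20.5%, against 13.2%, a ratio of 1.55 (exact test, adjusted p = 0.00520). These were 2 of the 14 motifs, 14.3%, and 6 had an unadjusted p under 0.05. Against intron summits none of the 14 passed (0%) in the Fisher test, and 0 had an unadjusted p under 0.05. At intron summits the B box was in 3.37% and the A box in 20.7%. With near-identical copies left out, the B box ratio was 5.91 (exact test, adjusted p = 0.00131) and the A box ratio was 1.18 (adjusted p = 0.643). In the replicate 1 list alone, with 151 members, the B box ratio was 2.77 (exact test, adjusted p = 0.723). Over the alternatives tried, the adjusted p ran from 6.8e-05 to 0.723 for the B box and from 2.7e-04 to 0.815 for the A box.

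Against their own flanks, 400 bp to each side, several motifs were concentrated at the summits, given here without a test. The EOR-1-like motif was in 30 members, 6.54%, in 0.654% of 918 flanking windows and in 0.561% of evenly placed windows. GAGAGAGA was in 38 members, 8.28%, against 1.53% and 1.25%. GGGCGG was in 9.15% against 2.51% and 2.29%, and CACGTG in 7.41% against 2.29% and 2.20%. The B box was in 0.436% of flanking windows and in 0.0432% of evenly placed ones, and the A box in 9.26% and 8.42%. Other classes of peak had shares near those of members for most of these. The EOR-1-like motif was in 5.18% of intron and 4.61% of promoter windows, GAGAGAGA in 5.18% and 5.35%, GGGCGG in 7.77% and 10.6%, and CACGTG in 8.55% and 5.99%. GATA, the motif of the epidermal factors ELT-1 and ELT-3, was in 25.5% of members, 29.0% of flanking windows and 28.3% of evenly placed windows. Runs of 8 T were rarer at summits, 8.93% against 23.1% and 18.8%. Member windows were richer in GC than the space, as given above, and the part of that in these shares was not tested.

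**Figure D5:**
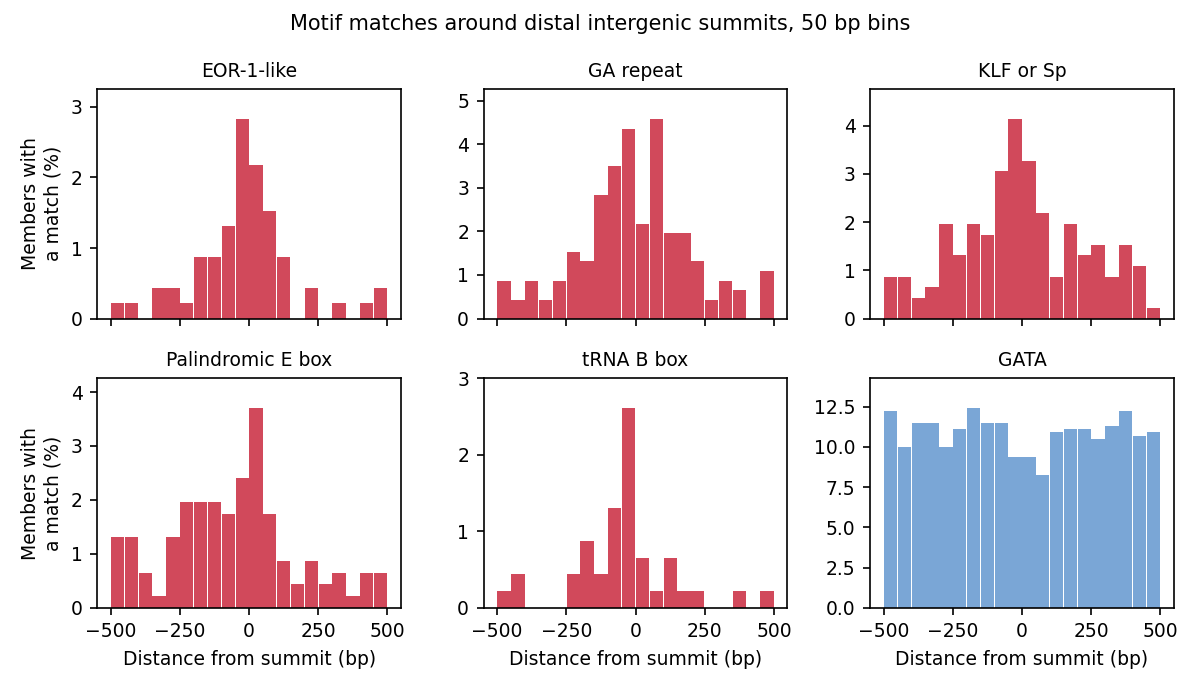
Share of the 459 members with a motif match in each 50 bp bin, by distance of the match from the summit, for 5 motifs concentrated near the summit (red) and GATA (blue), each panel with its own vertical scale. EOR-1-like matches are densest within 100 bp of the summit, and B box matches in the 100 bp at lower coordinates than the summit. GATA stays between 8.28 and 12.4% throughout.

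Members with the EOR-1-like motif lay mostly outside the sequence groups, as most members did. Of the 30, 29 belonged to no sequence group, and 28 lay upstream of the nearest 5′ end. Their median signal was 109, and 5 were in both own lists. Over all 459 members, 72.3% belonged to no sequence group, 65.8% lay upstream and 23.1% were in both own lists. The strongest, 1421 bp upstream of pptr-1, a gene for a regulatory subunit of protein phosphatase 2A, was at 97.2 in replicate 1, 157 in replicate 2 and 252 in the list of both. One 2033 bp upstream of hif-1, the hypoxia-inducible factor gene, was at 38.6, 119.8 and 164. One 1799 bp upstream of egl-9, the prolyl hydroxylase gene that acts on HIF-1, was at 39.7, 90.8 and 126. Both of these last were in the own list of replicate 2 only, and all 3 were higher in replicate 2. The hif-1 and egl-9 members were picked out after their values were seen.

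The protein-coding genes nearest to members were 392, and 12 gene lists were counted among them, with no test. The lists need not hold every gene of a class. Nuclear hormone receptor genes, ligand-regulated transcription factors, were nearest to 13 members, 2.83% (1.66 to 4.78%), and would be nearest to 8.78 by their share of the space. They were 10 of the 274 genes in the list. After nhr-277, the strongest of them were nhr-247, with 64.5 in replicate 1, 124 in replicate 2 and 214 in the list of both, nhr-88 with 60.0, 99.7 and 166, and nhr-21 with 46.2, 101 and 144. All these lay upstream of their genes. The nhr-247 member belonged to the repeat group with 350 genomic places and had 187 related copies. It was not in the own list of replicate 1. Among the 13, a member at nhr-3 with a signal of 11.2 lay beside a stronger one, at 83.8, near the same gene.

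Homeobox genes, regulators of body pattern, were listed by ceh name or as selectors, 86 in all. The listed genes were nearest to 4 members, against 4.47 by space. These were egl-5 at 162, ceh-37 at 155, ceh-45 at 133 and ceh-43 at 87.6 in the list of both. Only the ceh-37 member was in both own lists. The egl-5 member was in that of replicate 2 only and the ceh-45 member in that of replicate 1 only. The ceh-43 member was in neither. The egl-5 and ceh-45 members belonged to sequence groups. The list leaves out unc-39, the nearest gene to another member. The 14 epidermal transcription factor genes were nearest to 1 member, at blmp-1, against 0.900 by space. It was at 34.9 in replicate 1, 48.7 in replicate 2 and 74.0 in the list of both, and was in neither own list. Developmental timing genes were nearest to 2 members, against 0.826 by space. They were the blmp-1 member again and a member at hbl-1, a zinc-finger gene of the larval programme. The hbl-1 member was at 54.9, 40.6 and 102, also in neither own list. Hedgehog-related and patched-related genes were nearest to 2 members, against 2.08 by space. These lay at the patched-related genes ptr-5 and ptr-20, with 105 and 90.8 in the list of both, and were in neither own list.

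Cuticle collagen genes, whose products build the coat made by the epidermis, were nearest to 0 of 459 members, against 2.96 by space, and a count of 0 has an upper Wilson bound of 0.830%. Histone genes were also nearest to 0, against 0.461. The 1267 listed chemoreceptor genes, of a large neuronal family, were nearest to 9, or 1.96% (1.03 to 3.68%), against 22.1 by space. That list leaves out odr-10, the nearest gene to another member. Insulin-like peptide and neuropeptide genes were nearest to 1, nlp-1, against 7.12. F-box and MATH or BATH genes were nearest to 4 against 7.57, and C-type lectin genes to 2 against 2.96. The ribosomal protein gene rps-14 was nearest to 1 member, at 66.2 in replicate 1, 117 in replicate 2 and 184 in the list of both. Nearness does not tie a peak to a gene.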

How the data were processed

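LIN-26::GFP ChIP-seq was measured in 2 replicates of 1 group. The p-values rest on counts of peaks taken as independent, and measure no spread between replicates or groups. The authors deposited 8 peak lists on ce11, of which 7 were used. The aligner and the peak caller, with versions, were not given in the sources used here. Per the file headers and values, the deposited score is an IDR score, whose lowest value, 830, is an IDR of 0.01, and the deposited signal is enrichment over a control alignment. The deposited −log10 of the global IDR gave the 0.05 alternative. Read depth is unknown, so intervals cover counting of peaks only.

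Summits were placed against Ensembl release 115 on WBcel235, with symbols from RefSeq for 99.98% of genes. Distances are to 29784 annotated 5′ ends. Motifs were compared by Fisher tests with Benjamini-Hochberg adjustment over 28 tests at 0.05. Sequence groups joined members whose 150 bp windows aligned over at least 50 bases (BLAST 2.17.0, E at most 1e-03), and near-identical copies were at least 90% identical over 135 bases. Evenly placed windows came every 10000 bases of the space. Scripts used matplotlib 3.10.9, networkx 3.6.1, pandas 2.3.3, scipy 1.17.1 and numpy 2.4.6 in Python 3.11.15, and were tested on simulated data.

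Named genes were those whose 5′ ends flank the 15 strongest members and 10 further ones in both own lists, up to 4 per gene list, and non-coding genes within 500 bp, from which the text takes those its results use. Genes at groups, motifs and clusters were named after their values were seen. The members, gene lists and motifs were chosen with earlier results of these data known. Signal tracks were not used here.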

Additional observations from a re-analysis of the deposited data

How the results depend on the processing

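The ratio of members to their share of the genome stayed below 1 and past the threshold under all 12 alternatives, from 0.549 to 0.772. The outermost 5′ ends gave the same members by construction. The ratio of members in both own lists to intron peaks kept its direction and did not pass the threshold with an overlap of 80% (1.30), in the conservative list (1.23), at or above the median signal (1.01) or without related copies (1.58). The ratio to promoter peaks passed it with a promoter window of 2000 bp (1.31), and was 0.902 without near-identical and 0.895 without related copies. The cause was not tested.

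Motif differences called, 2 of 28, were 1 with windows of 100 bp (B box lost), 1 without near-identical copies and 1 with the 2000 bp promoter window (A box lost in both), 5 with windows of 300 bp, and 1 to 4 from the list of a single replicate. Without nearby stronger summits there were 3, with AP-1 lower added. Without related copies there were 2, the A box lost and the GA repeat gained. The B box kept its direction in 9 of 9 alternatives and its call in 7, and the A box in 9 and 6.

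The alternatives without nearby stronger summits, without related copies and without short RNA genes were chosen after seeing the data. No paired analysis was possible because there was 1 group. Unknown depth and the authors' unstated handling of repeated sequence limit the values at members with copies.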
